A study of Mus musculus with 18 samples.

Results

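Genes of the Notch pathway were examined in mouse palate: the receptors Notch1, Notch2 and Notch3, the ligands Jag1, Jag2 and Dll1, and the nuclear effectors Hes1, Hey1, Hey2 and Heyl. Members were chosen by name, and every probe set that the platform annotation assigned to 1 of these symbols alone was used, which gave 18 of the 45037 probe sets without controls. At gene level, where the brightest probe set over all arrays stood for its gene, the members were 10 of 18193 genes. More than 1 probe set was present for 6 members, and 4 members had 1.

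Total RNA was measured on 18 Affymetrix arrays, 6 per group, from C57BL/6J embryos at embryonic day 15.5 whose sex was not determined. The groups were anterior palate of Tgfbr2 fl/fl controls, posterior palate of Tgfbr2 fl/fl controls, and posterior palate of K14-Cre;Tgfbr2 fl/fl mutants. All 3 groups therefore carried the floxed allele of Tgfbr2, the type II receptor for TGF-beta, and only the mutants carried K14-Cre, a recombinase under a keratin promoter of epithelial cells. The study asked how loss of this receptor from the palatal epithelium acts on the tissue beneath it, and for that it compared mutant with control posterior palate (genotype) and control posterior with control anterior palate (region). Mutants and controls came from separate litters, so litter and genotype cannot be told apart. The series states 5 samples in each group, but 6 are labelled and all were used. Whether each came from a single embryo or from pooled tissue is not labelled, and the p-values cover the variation among these arrays, which may be technical.

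Notch receptors are membrane proteins that are activated by ligands of the Jagged and Delta-like families on a neighbouring cell. Ligand binding leads to cleavage of the receptor by an ADAM protease and then by gamma-secretase, and the freed intracellular domain joins the DNA-binding protein RBPJ to switch on target genes, among them the repressors of the Hes and Hey families. In the palate, Notch signalling is known for work on Jag2, whose loss in mice lets the palatal shelves fuse to the tongue and leaves the palate cleft, and in stratified epithelium Notch1 takes part in the differentiation of suprabasal cells. Jag1 and Notch3 are also known for signalling between endothelium and the mural cells of vessels.

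Values were deposited log2 RMA signals. A member was called where its difference had an adjusted p under 0.05 in limma (moderated test over all genes or over all probe sets, Benjamini-Hochberg adjustment). The number of arrays limits the precision. Palate is a mixed tissue, and in such bulk samples fewer cells of a type and less RNA per cell cannot be told apart. Basal and simple epithelial markers had high signals, which do not check the palate or region labels. Their mean over 11 genes ranged from 11.50 to 12.13 in anterior controls, 11.26 to 11.70 in posterior controls and 9.17 to 11.86 in mutants. Mesenchymal markers of the palate, 10 genes, ranged from 9.33 to 10.31, 10.02 to 10.34 and 9.58 to 10.78 in the same order. Of these 10, 2 were called higher in posterior than in anterior controls (Meox2, 2.89, and Tbx22, 1.92), beside 1.7% of all genes. Msx1 was the 1 called lower (-2.86), beside 2.12%. The brightest Tgfbr2 probe set was not lower in mutants: it ranged from 10.25 to 10.73 in posterior controls and from 10.63 to 11.39 in mutants, a rise of 0.55 (adjusted p = 0.00972 over probe sets). Whether its probes lie outside the deleted part was not tested, so Tgfbr2 does not check the labels here, and "mutant" below means the arrays labelled so. Labelling spike-in controls were lower in mutants, from 7.18 to 8.84, than in posterior controls, from 9.35 to 11.00, and their part in the genotype differences was not tested. In each group, signals of hybridisation spike-in controls of arrays 1 to 3 did not overlap those of arrays 4 to 6. The directions differed. Arrays 1 to 3 were lower in anterior controls (10.94 to 11.02 beside 11.33 to 11.51) and in posterior controls (10.93 to 10.96 beside 11.26 to 11.33). In mutants they were higher (11.71 to 12.21 beside 11.06 to 11.18). Array medians of mutant arrays 1 to 3, from 5.87 to 5.90, also lay above those of mutant arrays 4 to 6, from 5.77 to 5.78. In posterior controls the array medians ran from 5.75 to 5.80. Values within these sets of arrays are therefore given beside the results they touch. Equal numbers are not shown to mark the same set in mutants and controls. A genotype difference over equally numbered arrays is therefore not known to be a comparison within a set.

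In mutant posterior palate, Notch1 and Notch2 were higher than in control posterior palate, by 1.41-fold and 1.37-fold. These were 2 of the 10 members called, beside 13.5% of all genes (7.73% called higher and 5.73% called lower), and the same 2 had groups that did not overlap, beside 6.55% of all genes. Over all genes, 57.5% of the genotype calls were higher, and 38.5% after each array was centred on its median; 2449 genes were called, and 1512 without control posterior array 5 or 1592 without array 4, with the same 2 members called in each of these fits. A positive difference was found for 7 of 10 members. The median difference over the members was 0.14 on the log2 scale, beside 0.04 over all genes. Counted by probe set, 6 of 18 were called, beside 10.7% of all probe sets: 4 of 6 for receptors, 0 of 6 for ligands and 2 of 6 for effectors. The 2 effector probe sets both belonged to Heyl. Of the 18 probe sets, 15 had a positive difference. Between the control regions, Notch1 alone was called, lower in posterior palate. That is 1 of 10 members beside 3.82% of all genes (1.7% called higher and 2.12% called lower), and 1 of 18 probe sets beside 1.86%. With the replicate number as a block, a pairing of the control arrays that was not established, 2 of 10 members were called (Jag1 added). This stood beside 17.3% of all genes, a share near the background. Notch1 was also the 1 member without overlap between the regions, beside 6.32% of all genes. Differences for region were negative in 8 of 10 members, with a median of -0.16 beside -0.02 over all genes. The comparisons share the control posterior arrays, and a high or low value there enters both with opposite sign.

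**Figure D1:**
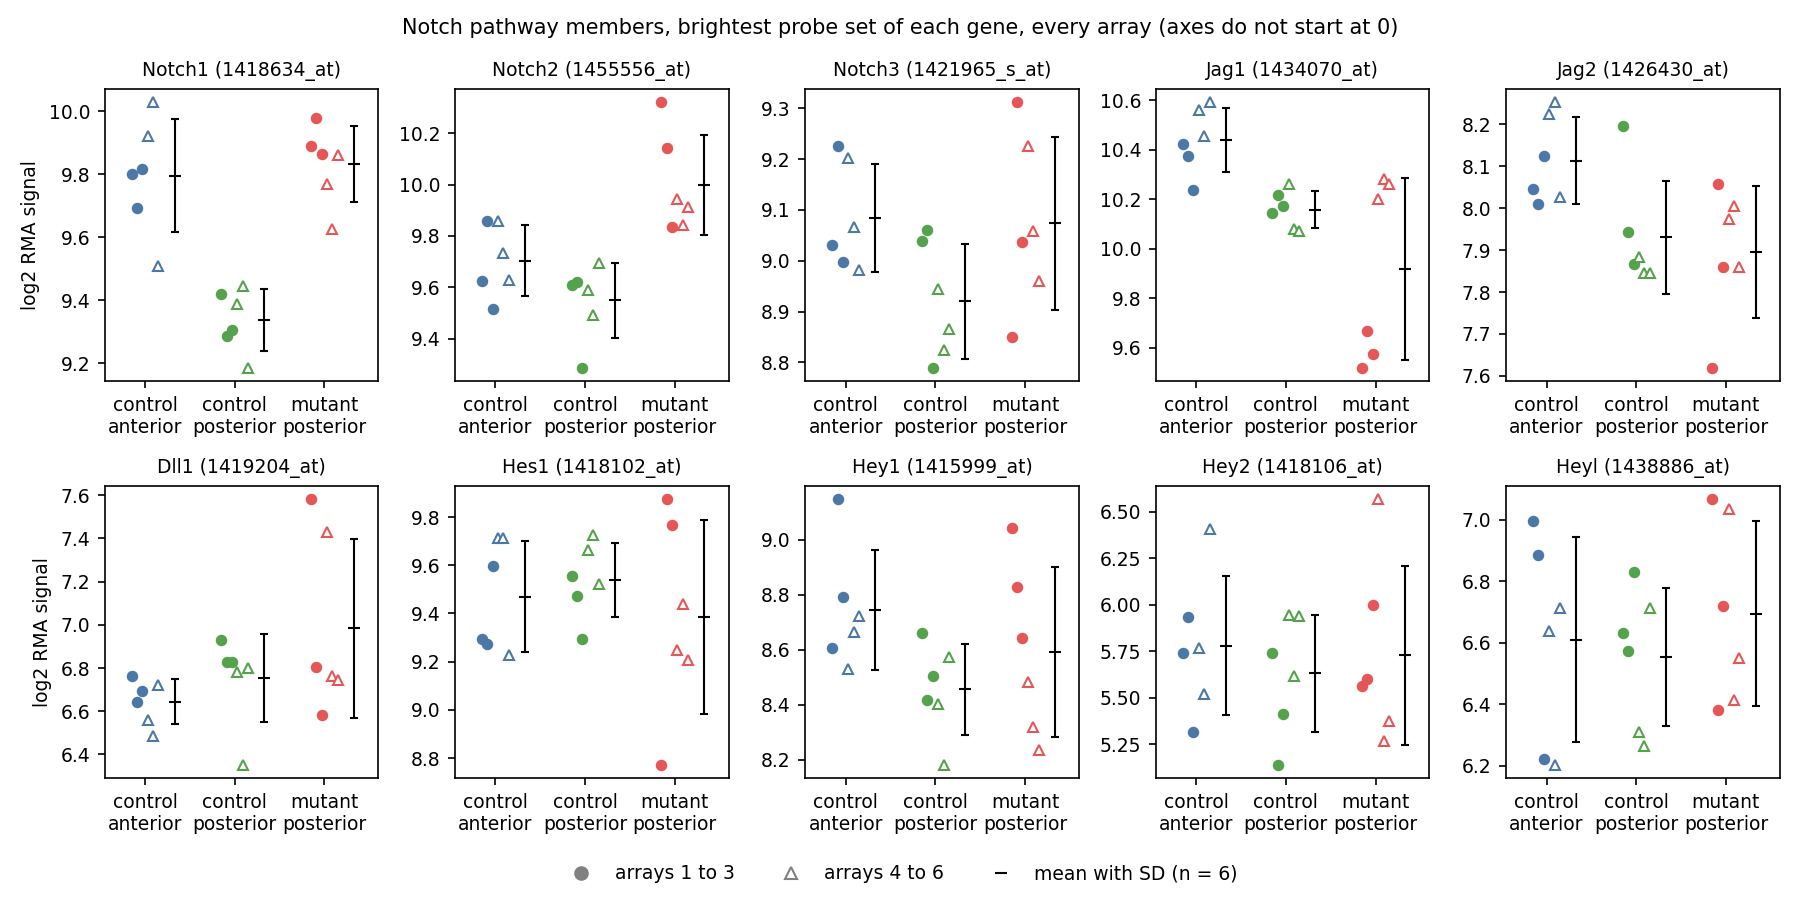
Log2 RMA signal (vertical axes, which do not start at 0) of the brightest probe set of each of the 10 members on every array, by group, with the mean and SD of 6 arrays; filled circles are arrays 1 to 3 and open triangles arrays 4 to 6. Notch1 and Notch2 were higher on every mutant array than on any control posterior array, and Jag1 was split in the mutants, with 3 arrays from 9.52 to 9.67 and 3 from 10.20 to 10.28.

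Among the receptors, Notch1 had the lowest signal in control posterior palate and similar signals in the other groups. On its brighter probe set, 1418634_at, the lowest, median and highest values were 9.51, 9.81 and 10.03 in anterior controls. In posterior controls they were 9.18, 9.35 and 9.44, and in mutants 9.63, 9.86 and 9.98. Posterior controls did not overlap either group, whereas the mutants fell inside the anterior range. The group means were 9.80 ± 0.18, 9.34 ± 0.10 and 9.83 ± 0.12 (SD, n = 6), a genotype difference of 0.49 (SE 0.083, 95% interval 0.32 to 0.67, adjusted p = 0.00108 over genes). With arrays 1 to 3 of all groups, the difference was 0.57 (adjusted p = 0.00617). With arrays 4 to 6 it was 0.41 (adjusted p = 0.0734), and the call was lost.

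The region difference of Notch1 was -0.46 (SE 0.083, 95% interval -0.63 to -0.28, adjusted p = 0.00368). It was -0.43 over arrays 1 to 3 (adjusted p = 0.0759) and -0.48 over arrays 4 to 6 (adjusted p = 0.119), similar in size with fewer arrays and not called. Mutant posterior and control anterior palate were not tested against each other. The dimmer Notch1 probe set, 1418633_at, gave means of 7.34 ± 0.16 in anterior controls, 7.15 ± 0.17 in posterior controls and 7.53 ± 0.17 in mutants (SD, n = 6). All its mutant arrays, from 7.37 to 7.82, were above the posterior controls, from 6.91 to 7.36, although the nearest arrays almost met. The genotype difference of 0.38 was called (SE 0.098, adjusted p = 0.0183 over probe sets), and the region difference of -0.19 was not (adjusted p = 0.355). The genotype call was lost over arrays 1 to 3 (0.47, adjusted p = 0.0857), over arrays 4 to 6 (0.29, adjusted p = 0.131) and with the sets as a random block (adjusted p = 0.135), and in 9 of 33 alternatives in all. Values that did not overlap between posterior controls and mutants were found for 4 of the 18 probe sets, beside 5.47% of all probe sets, and between the control regions for 2 of 18, beside 4.48%.

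Stratified epithelial markers moved in the same directions as Notch1. Their mean over 12 genes ranged from 7.89 to 9.27 in anterior controls, 7.33 to 8.13 in posterior controls and 8.36 to 10.19 in mutants. In mutants 8 of these 12 markers were called higher, with a median difference of 1.63, beside 7.73% of all genes called higher. None of 11 basal and simple epithelial markers was called higher and 1 (Cldn6) was called lower, beside 5.73% of all genes. Their differences were negative in 10 of 11, with a median of -0.44. Between the control regions 1 of 12 stratified markers was called lower, beside 2.12% of all genes, with a median of -0.78. Skeletal muscle markers moved with region in the direction opposite to Notch1. Their mean over 12 genes ranged from 5.46 to 7.55 in anterior and from 9.04 to 10.10 in posterior controls, with 11 of 12 called higher. In mutants it ranged from 8.88 to 11.41. For genotype 1 of 12 was called higher, a share near the 7.73% of all genes, and 11 of 12 differences were positive, with a median of 0.63. The part of these cells in the Notch1 differences was not tested.

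Notch2 was higher in mutants without a called difference between the control regions. On its brighter probe set, 1455556_at, values ran from 9.28 over a median of 9.60 to 9.69 in posterior controls and from 9.83 over 9.93 to 10.32 in mutants. No mutant array overlapped a posterior control, and anterior controls, from 9.52 over 9.68 to 9.86, lay across both. The genotype difference was 0.45 (SE 0.094, 95% interval 0.25 to 0.65, adjusted p = 0.00476 over genes). It was 0.59 over arrays 1 to 3 (adjusted p = 0.0515) and 0.31 over arrays 4 to 6 (adjusted p = 0.0390), and with the sets of arrays as a random block its adjusted p was 0.0583. The region difference was -0.15 (95% interval -0.35 to 0.04, adjusted p = 0.380). The other Notch2 probe set, 1451889_at, was dim, at the 28.5th percentile of all probe sets, and may hold background. It read 4.23 ± 0.08 in anterior controls, 4.42 ± 0.04 in posterior controls and 4.62 ± 0.16 in mutants (SD, n = 6). Neither step was called (adjusted p = 0.183 for region and 0.0716 for genotype), although neighbouring groups did not overlap.

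Notch3, a receptor that vascular mural cells carry, gave unlike sizes from its probe sets. The dimmer one, 1421964_at, ran from 5.64 over a median of 6.10 to 6.43 in posterior controls and from 6.34 over 6.61 to 7.08 in mutants. Of the mutant arrays, 4 of 6 lay above the highest posterior control, and anterior controls ran from 6.33 to 6.59. The genotype difference of 0.57 was called (SE 0.13, 1.49-fold, adjusted p = 0.00978 over probe sets), and it was called over arrays 1 to 3 (0.67, adjusted p = 0.0131) and over arrays 4 to 6 (0.48, adjusted p = 0.0266). With the sets as a random block the adjusted p was 0.0573. The brighter one, 1421965_s_at, whose suffix marks probes that can match more than 1 transcript, had means of 8.92 ± 0.11 in posterior controls and 9.07 ± 0.17 in mutants (SD, n = 6). Its difference of 0.15 missed the threshold (95% interval -0.02 to 0.32, adjusted p = 0.229 over genes), and a change of up to 0.32 lies inside that interval. The mean of both probe sets gave 0.36 (adjusted p = 0.0110). Between the regions Notch3 was not called on either (-0.40, adjusted p = 0.131, and -0.16, adjusted p = 0.343, over probe sets).

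**Figure D2:**
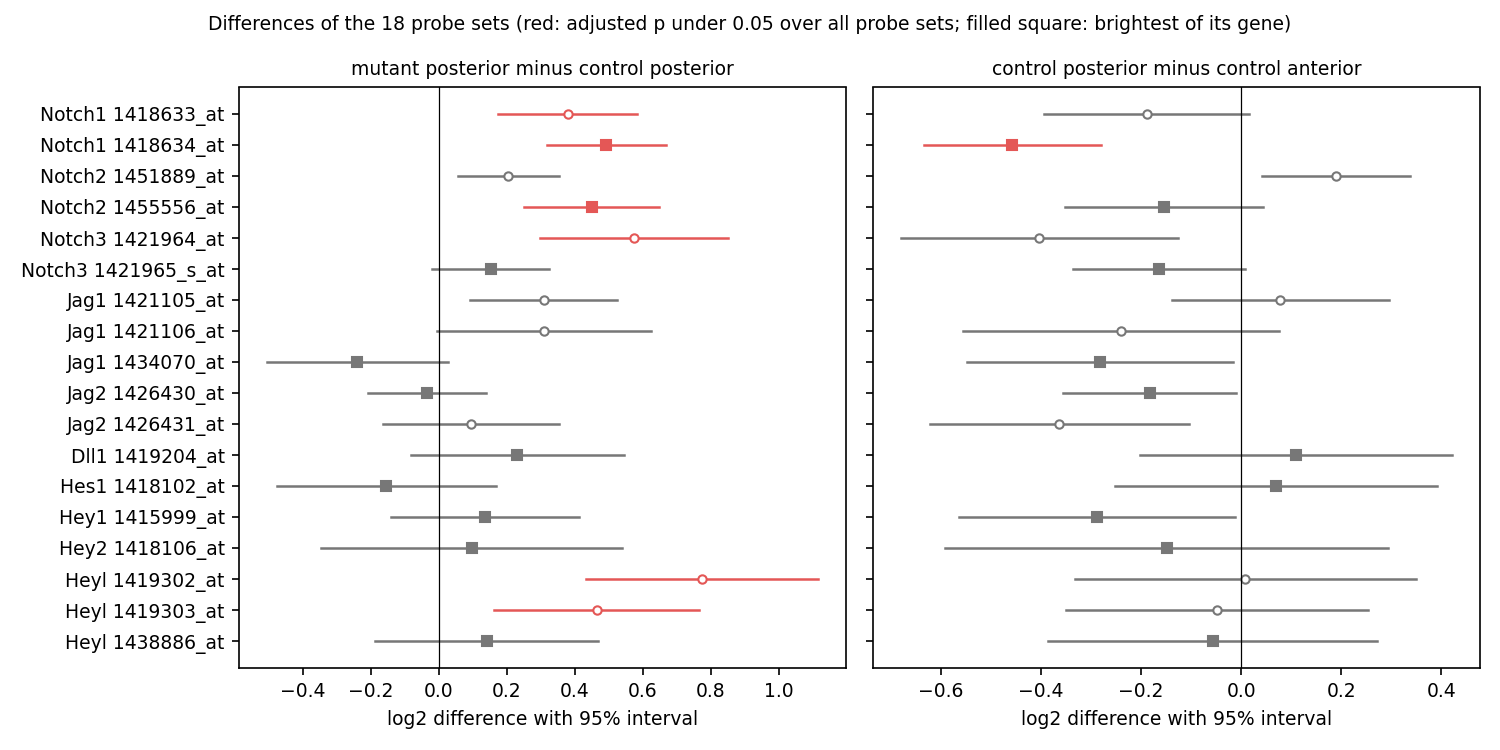
Log2 difference (horizontal axis) of each of the 18 probe sets of the members, with its 95% interval, for mutant minus control posterior palate and for control posterior minus control anterior palate; red points had an adjusted p under 0.05 over all probe sets, and filled squares mark the brightest probe set of each gene. For genotype 6 points are red, 4 of receptors and 2 of Heyl, and for region 1 is red (Notch1, -0.46).

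Promoter sequence was available in RefSeq (GRCm38.p6, from 250 bases before to 50 after each start site) for 7 of the 10 members, with 8 promoters, Dll1 having 2. Hes1, Hey1 and Heyl were not in that table. Hes proteins bind the N box, CACNAG, and its letters were searched on both strands. They occurred in 42.5% of all 32851 promoters of this length, so a match is a description and not a site. The receptors were the members called most often, and the stretches of their promoters that hold the letters are shown with the N box in capitals, read on the strand of the gene. In Notch1 the 3 matches began at -108, -3 and -1 from the start site, the last pair overlapping. In Notch2 the match began at -247, and in Notch3 the 2 matches began at -204 and -159. Jag1, Jag2 and Hey2 held none, and Dll1 held 1 in 1 of its promoters.
Notch1, chr2:26503813-26503942, minus strand: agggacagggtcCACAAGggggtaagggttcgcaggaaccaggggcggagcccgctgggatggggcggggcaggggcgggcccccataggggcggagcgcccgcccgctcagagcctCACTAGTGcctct
Notch2, chr3:98013288-98013407, plus strand: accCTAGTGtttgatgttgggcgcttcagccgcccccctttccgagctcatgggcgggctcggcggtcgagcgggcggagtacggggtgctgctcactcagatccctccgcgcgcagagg
Notch3, chr17:32167021-32167140, minus strand: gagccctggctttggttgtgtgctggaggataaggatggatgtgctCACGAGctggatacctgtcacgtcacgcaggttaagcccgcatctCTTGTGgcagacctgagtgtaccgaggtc

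Of the ligands, 0 of 6 probe sets were called by limma in either comparison, and 1 had an unadjusted p under 0.05 for genotype and 3 for region. Jag1, a ligand made by epithelium and endothelium among other cells, had its highest signal in anterior controls on its brightest probe set, 1434070_at. Values ran from 10.24 over a median of 10.44 to 10.59 in anterior controls and from 10.07 over 10.16 to 10.26 in posterior controls, where 5 of 6 arrays lay below the lowest anterior array. The region difference was -0.28 (SE 0.13, 95% interval -0.55 to -0.01, adjusted p = 0.228). Equal replicate numbers of the control regions deviated together, and with the replicate number as a block the same difference was called (adjusted p = 0.0257).

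The mutants fell into separate ranges for Jag1. On 1434070_at, mutant arrays 1 to 3 read 9.52, 9.67 and 9.58, all below the lowest posterior control, and arrays 4 to 6 read 10.20, 10.28 and 10.26, within or just above the posterior control range. The genotype difference was -0.24 over all arrays (95% interval -0.51 to 0.03, adjusted p = 0.229). It was -0.57 with only mutant arrays 1 to 3 against all posterior controls (adjusted p = 0.000154), a fit that called 4986 of 18193 genes. With only arrays 4 to 6 it was 0.090 (adjusted p = 0.471). The dimmer probe sets did not follow this direction. On 1421106_at, mutants averaged 7.22 ± 0.42 and posterior controls 6.91 ± 0.12 (SD, n = 6), a difference of 0.31 (adjusted p = 0.208), with mutant arrays 1 to 3 from 6.67 to 7.06 and arrays 4 to 6 from 7.44 to 7.73. On 1421105_at, at the 44th percentile of all probe sets, 5 of 6 mutant arrays lay above the highest posterior control and the difference of 0.31 was not called (adjusted p = 0.0632). The 3 probe sets of Jag1 thus had genotype differences of unlike sign, and what set mutant arrays 1 to 3 apart was not tested.

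**Figure D3:**
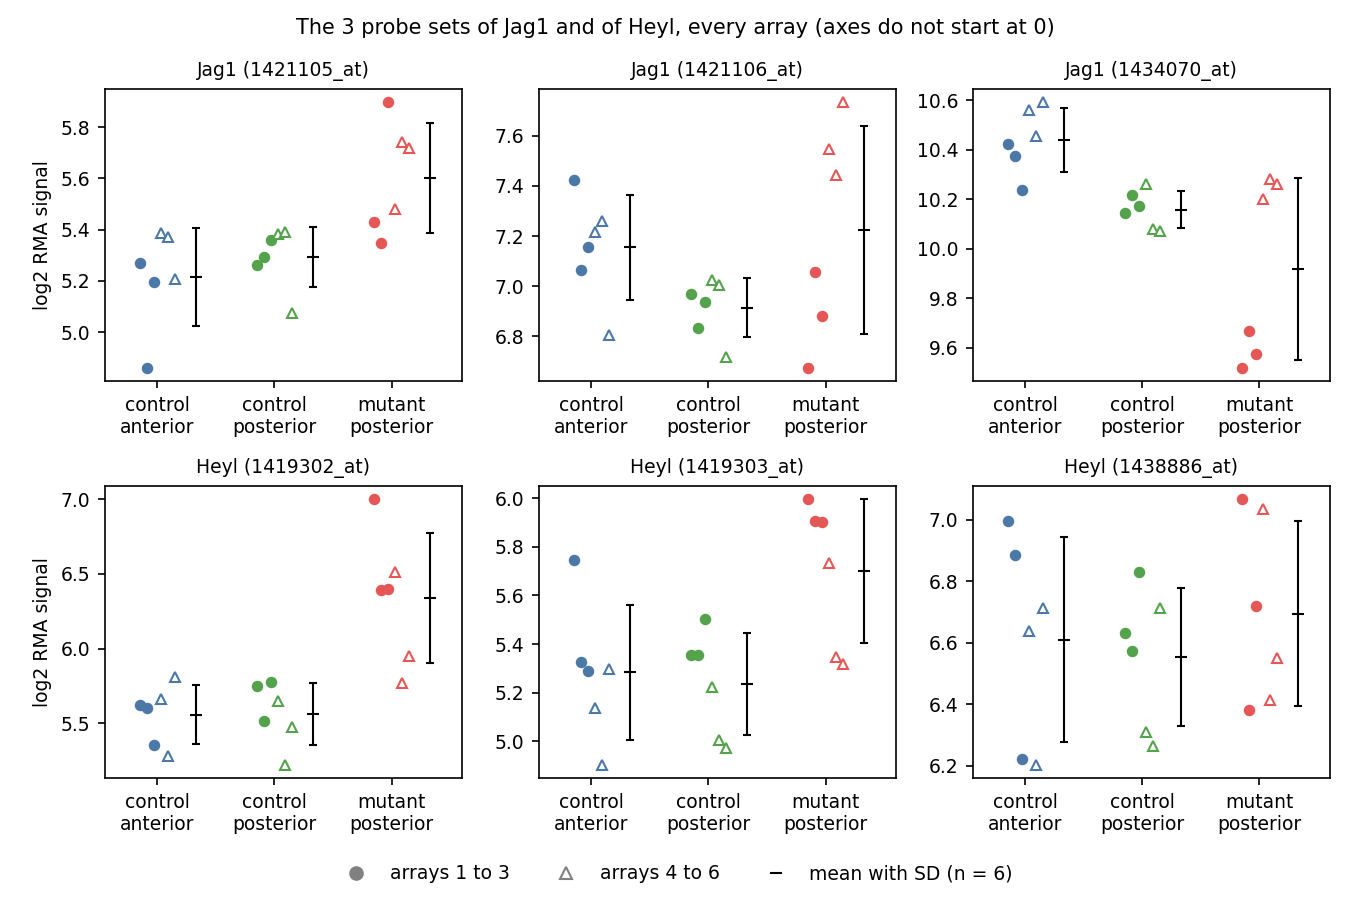
Log2 RMA signal (vertical axes, which do not start at 0) of the 3 probe sets of Jag1 and of Heyl on every array, by group, with the mean and SD of 6 arrays; filled circles are arrays 1 to 3 and open triangles arrays 4 to 6. The mutant arrays of Jag1 1434070_at form a low set from 9.52 to 9.67 and a high set from 10.20 to 10.28, and mutants of Heyl 1419302_at lie from 5.77 to 7.00, beside 5.22 to 5.78 in posterior controls.

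Jag2, the ligand whose loss gives cleft palate, showed little difference between mutant and control posterior palate. On 1426430_at, values ran from 7.85 over a median of 7.88 to 8.20 in posterior controls and from 7.62 over 7.92 to 8.06 in mutants, which overlapped. The difference of -0.034 had a 95% interval of -0.21 to 0.14 (adjusted p = 0.825), which leaves out a change of the size seen for Notch1. On 1426431_at the difference was 0.094 (adjusted p = 0.678). Between the control regions its differences were -0.18 and -0.36 on these probe sets, neither called (adjusted p = 0.287 and 0.146 over probe sets).

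Dll1, a Delta-like ligand, was measured by 1 probe set. It ran from 6.48 over a median of 6.67 to 6.76 in anterior controls, from 6.35 over 6.81 to 6.93 in posterior controls and from 6.58 over 6.78 to 7.58 in mutants. Mutant arrays 1 and 4 read 7.58 and 7.43, and the other 4 mutants, from 6.58 to 6.80, lay within the control range. The genotype difference was 0.23 (95% interval -0.08 to 0.55, adjusted p = 0.334) and the region difference 0.11 (adjusted p = 0.734). Without mutant array 1 the genotype difference was 0.11, and it was called neither with that array nor without it.

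Among the effectors, Heyl, a Hey family repressor that mural cells express, rose on its dimmer probe sets and not on its brightest. On 1419302_at, mutant arrays ran from 5.77 over a median of 6.40 to 7.00, posterior controls from 5.22 over 5.58 to 5.78 and anterior controls from 5.28 over 5.61 to 5.81. Of the mutants, 5 of 6 lay above the highest posterior control. The genotype difference was 0.78 (SE 0.16, 95% interval 0.43 to 1.12, 1.71-fold, adjusted p = 0.00563 over probe sets). It was 0.92 over arrays 1 to 3 (adjusted p = 0.0137) and 0.63 over arrays 4 to 6 (adjusted p = 0.0718), and without mutant array 1, the highest, it was 0.64 (adjusted p = 0.00797). With the sets as a random block the adjusted p was 0.0546. On 1419303_at the difference was 0.46 (SE 0.14, adjusted p = 0.0455 over probe sets), with mutant arrays 1 to 3 above all posterior controls and 2 of arrays 4 to 6 among them. It was 0.53 over arrays 1 to 3 (adjusted p = 0.0365) and 0.40 over arrays 4 to 6 (adjusted p = 0.0943). The call on this probe set was lost in 13 of 18 fits that left out 1 array, and in 23 of 32 alternatives in all (adjusted p up to 0.489).

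The brightest Heyl probe set, 1438886_at, gave 6.55 ± 0.22 in posterior controls and 6.69 ± 0.30 in mutants (SD, n = 6), a difference of 0.14 (95% interval -0.19 to 0.47, adjusted p = 0.605 over genes). Its groups overlapped over most of their range. The mean of the 3 probe sets gave 0.46 (adjusted p = 0.0334). No Heyl probe set differed between the control regions beyond the spread, with differences from -0.06 to 0.0088. Which transcripts each probe set reads was not tested.

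Markers of mural cells and smooth muscle, cells in which Heyl and Notch3 are known to be expressed, were in part called higher in mutants. Their mean over 10 genes ranged from 7.79 to 8.33 in anterior controls, 7.96 to 8.20 in posterior controls and 8.14 to 8.91 in mutants, and was highest on mutant array 1. Of these, 3 of 10 were called higher, beside 7.73% of all genes: Cspg4 (0.88, adjusted p = 0.00104), the pericyte proteoglycan NG2, and Kcnj8 (0.93, adjusted p = 0.0209) and Abcc9 (1.16, adjusted p = 0.0167), which together form a vascular potassium channel. The other markers were not called: Rgs5 (0.47), Acta2 (0.29), Cnn1 (0.24), Myh11 (0.21), Mcam (0.05), Pdgfrb (-0.07) and Tagln (-0.49). Endothelial markers ranged from 7.35 to 8.32, 7.59 to 7.998 and 7.29 to 8.26. Of these 0 of 13 were called by limma, beside 13.5% of all genes, and 2 had an unadjusted p under 0.05. The part of these cells in the Heyl and Notch3 differences was not tested.

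**Figure D4:**
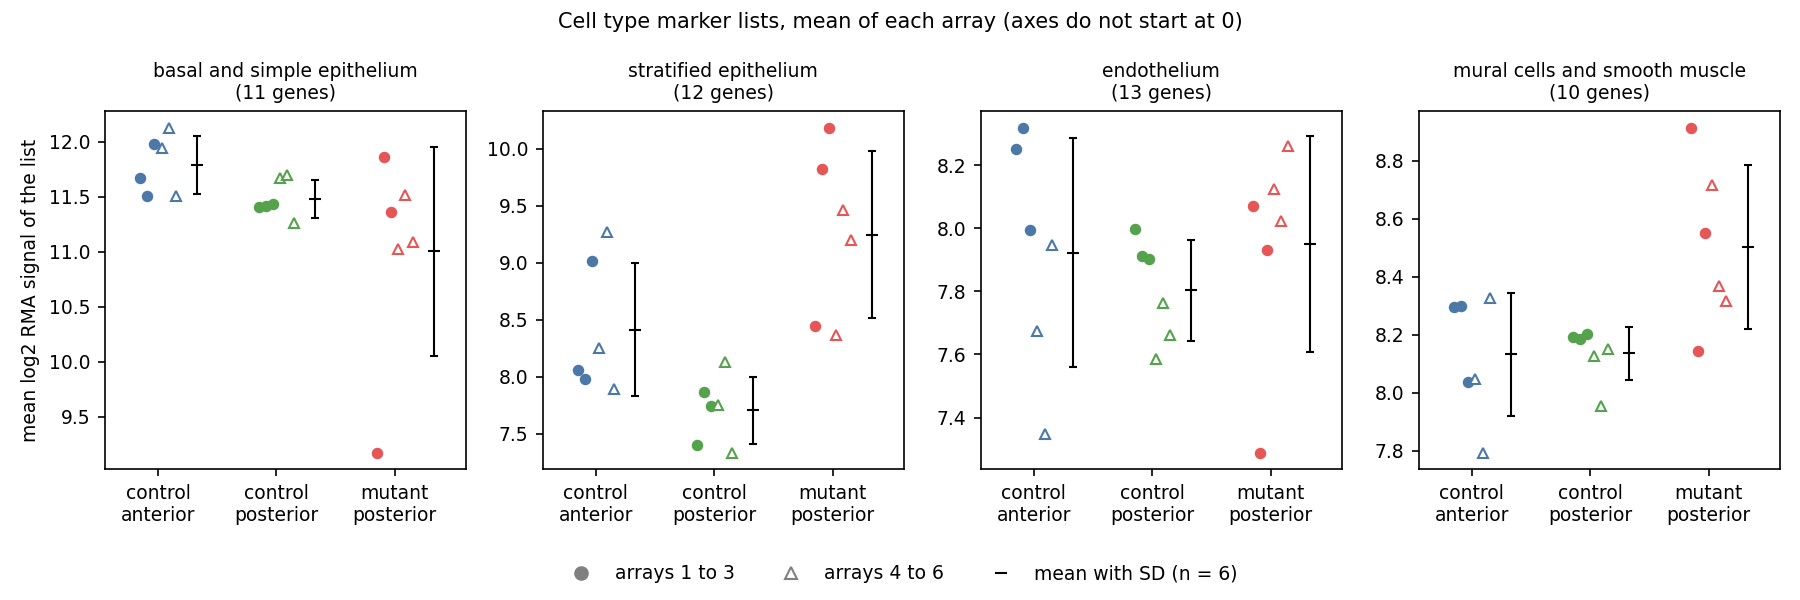
Mean log2 RMA signal (vertical axes, which do not start at 0) of marker lists of basal and simple epithelium, stratified epithelium, endothelium, and mural cells with smooth muscle on every array, by group, with the mean and SD of 6 arrays; filled circles are arrays 1 to 3 and open triangles arrays 4 to 6. Stratified epithelial markers run from 8.36 to 10.19 in mutants, above the 7.33 to 8.13 of posterior controls, and mural markers from 8.14 to 8.91 beside 7.96 to 8.20.

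Hes1, a repressor at the end of the pathway, was not called in either comparison. It ran from 9.29 over a median of 9.54 to 9.73 in posterior controls and from 8.77 over 9.35 to 9.87 in mutants, and from 9.23 to 9.71 in anterior controls. Mutant array 1 was the lowest of all 18 arrays at 8.77. On that array the mean of basal and simple epithelial markers was also the lowest, at 9.17, while the other mutants ran from 11.02 to 11.86, and its part in the Hes1 value was not tested. The genotype difference was -0.15 (95% interval -0.48 to 0.17, adjusted p = 0.553), and the region difference was 0.07 (adjusted p = 0.848). Without mutant array 1 the genotype difference was -0.032.

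Hey1, which is a direct target of Notch in many cells, had a negative region difference that was not called. It ran from 8.53 over a median of 8.69 to 9.15 in anterior controls and from 8.18 over 8.46 to 8.66 in posterior controls, and all 6 posterior arrays lay below the anterior mean. The region difference was -0.29 (95% interval -0.57 to -0.01, adjusted p = 0.236). In mutants, arrays 1 to 3 ran from 8.64 to 9.04 and arrays 4 to 6 from 8.23 to 8.48. The genotype difference over all arrays was 0.14 (95% interval -0.14 to 0.41, adjusted p = 0.542). Against all posterior controls it was 0.38 for mutant arrays 1 to 3 (adjusted p = 0.0445), where 4986 of 18193 genes were called, and -0.11 for arrays 4 to 6 (adjusted p = 0.608). The difference was 0.045 without mutant array 1, 0.088 without mutant array 2, 0.081 without control posterior array 5 and 0.21 without mutant array 6, not called in any of these fits.

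Hey2, a related repressor, had a probe set near the middle of all probe sets, at the 48.9th percentile. It ran from 5.14 over a median of 5.68 to 5.94 in posterior controls and from 5.27 over 5.58 to 6.57 in mutants, with anterior controls from 5.31 to 6.41. The groups overlapped, and the wide 95% intervals, from -0.35 to 0.55 for genotype and from -0.60 to 0.30 for region, could hold changes as large as that of Notch1 (adjusted p = 0.810 and 0.752). Hey2 was the 1 matched member whose promoter held the RBPJ motif GTGGGAA, which contains the shorter TGGGAA, searched on both strands. The longer motif occurred in 6.38% and the shorter in 25.6% of all 32851 promoters. The Hey2 stretch is shown because RBPJ is the DNA-binding partner of cleaved Notch, with the letters of the longer motif in capitals, at -207 on the opposite strand and at -4 on the strand of the gene.
Hey2, chr10:30842774-30843033, minus strand: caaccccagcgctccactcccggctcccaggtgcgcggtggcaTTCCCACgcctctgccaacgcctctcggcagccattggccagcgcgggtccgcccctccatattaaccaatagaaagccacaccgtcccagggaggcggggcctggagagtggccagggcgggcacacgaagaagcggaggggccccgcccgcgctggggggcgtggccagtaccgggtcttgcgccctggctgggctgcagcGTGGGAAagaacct

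In 8 of the 10 members the SD over the mutant arrays was larger than in both control groups. Notch1 and Heyl were the exceptions at gene level. Over all genes the median SD was 0.15 in anterior controls, 0.13 in posterior controls and 0.23 in mutants, so wider spread in mutants was not confined to these members.

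The rest of the pathway was described by lists that were chosen together with the members. Among 9 measured other receptors and ligands, 2 were called higher in mutants and 0 lower, beside 7.73% and 5.73% of all genes. They were Dlk1, a non-canonical ligand-like protein (0.88, SE 0.14, adjusted p = 0.000673), and Cntn1, a neural adhesion protein that can bind Notch (0.96, SE 0.28, adjusted p = 0.0320). Cntn1 had an SD of 0.80 in mutants and 0.11 in posterior controls, and these groups overlapped. The mean of 5 neural and Schwann markers ranged from 6.01 to 10.70 in mutants and from 8.39 to 9.24 in posterior controls. Its part in the Cntn1 difference was not tested. Dlk1 was also higher in posterior than in anterior controls (0.93, adjusted p = 0.000520), the 1 call among these 9 for region, beside 3.82% of all genes. Skeletal muscle markers had positive differences in 12 of 12 for region and 11 of 12 for genotype, and their part in the Dlk1 differences was not tested. The receptor Notch4 and the ligand Dll4, which are known from endothelium, had genotype differences of -0.11 (adjusted p = 0.640) and 0.21 (adjusted p = 0.274) and were named after their values were seen.

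Among 24 measured genes of receptor processing and modification, 3 were called higher in mutants and 0 lower. The 3 calls are a share near the 13.5% of all genes called. Psen2 (0.49, SE 0.12, adjusted p = 0.0107) and Aph1b (0.35, SE 0.10, adjusted p = 0.0259) encode subunits of gamma-secretase, and Nedd4 (0.37, SE 0.11, adjusted p = 0.0332) encodes a ubiquitin ligase. The median of this list was 0.05, near the 0.04 of all genes. For region 0 of 24 were called by limma, beside 3.82% of all genes, and 4 had an unadjusted p under 0.05. The smallest p-values were those of Dtx4 (0.41, adjusted p = 0.0567), a Deltex ubiquitin ligase, and Numb (-0.19, adjusted p = 0.101), an inhibitor of Notch.

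Among 14 measured genes of the nuclear complex and its corepressors, 1 rose and 1 fell in mutants, a share near the 13.5% of all genes called. Spen, a corepressor of RBPJ, was higher by 0.43 (SE 0.10, adjusted p = 0.00958), and the histone deacetylase Hdac1 was lower (-0.45, SE 0.051, adjusted p = 4.0e-05). For region Tle3, a Groucho corepressor, was the 1 call, at -0.35 (adjusted p = 0.0298), beside 3.82% of all genes called. The median genotype difference of this list was -0.01.

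Of 12 other target genes, 0 were called for genotype by limma, beside 13.5% of all genes. An unadjusted p under 0.05 was found for 2: Ccnd1, a cyclin (0.34, adjusted p = 0.143), and Cdkn1a, a cell cycle inhibitor (0.43, adjusted p = 0.160). For region the 1 call was Gata3, a transcription factor that was lower in posterior palate (-1.81, SE 0.48, adjusted p = 0.0410), with an SD of 1.02 in anterior and 0.10 in posterior controls. That 1 call of 12 stood beside 3.82% of all genes. The medians of these targets were -0.00 for genotype and -0.09 for region, beside 0.04 and -0.02 for all genes.

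**Figure D5:**
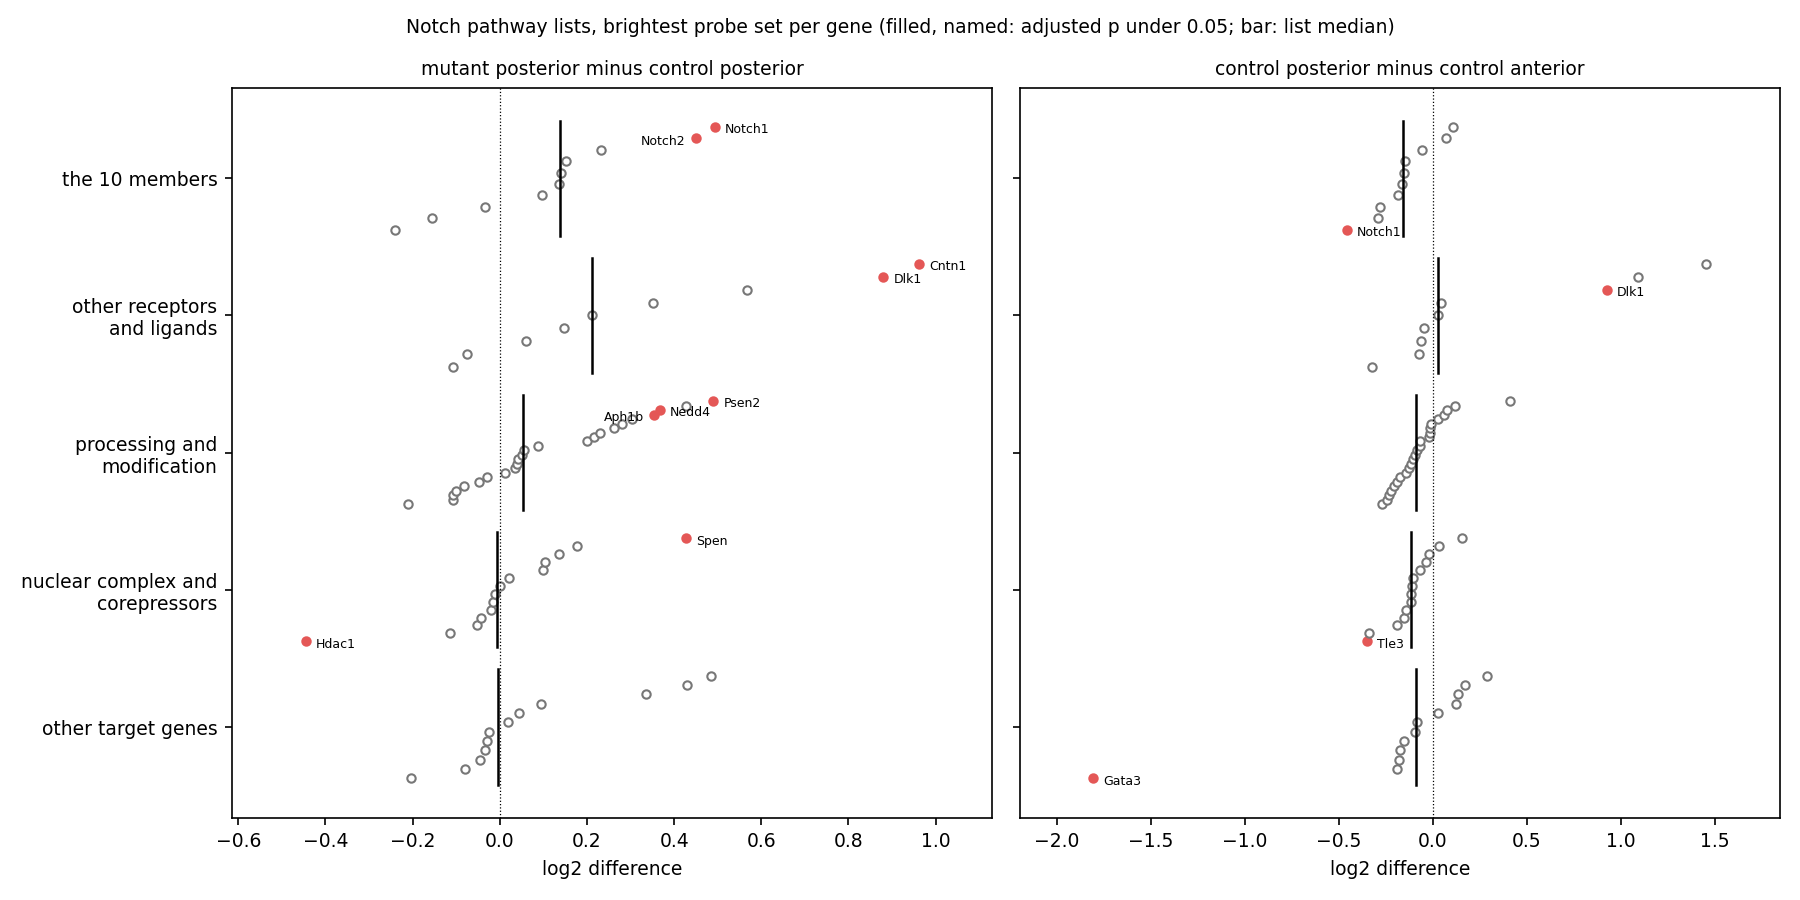
Log2 difference (horizontal axes) of each measured gene of the members and of 4 further Notch pathway lists, 1 point per gene on its brightest probe set, for mutant minus control posterior palate (left) and control posterior minus control anterior palate (right); filled, named points had an adjusted p under 0.05 and bars are list medians. The genotype medians run from 0.21 for other receptors and ligands to -0.01 for the nuclear complex.

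The genes most like a called member were found by Pearson correlation over the 18 arrays, as a description. Differences between the 3 groups enter these values, so calls shared with the member are in part built into the choice. For Notch1 they were Ctnnd1 (r = 0.919), which encodes p120-catenin, then Pak2 (r = 0.899), a kinase, and Cd109 (r = 0.880), a surface protein. Ctnnd1 and Cd109 were, like Notch1, called higher in mutants (0.22 and 0.69) and lower in posterior than in anterior controls (-0.26 and -0.68). For Notch2 they were Zfp148 (r = 0.912), Uggt1 (r = 0.907) and Nsd3 (r = 0.891), each called higher in mutants, by 0.40, 0.44 and 0.23.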

How the data were processed

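The authors deposited log2 signals from RMA, a tool named without a version in the submitters' processing notes. RMA corrects background, equalises array distributions and summarises each probe set, which takes out much of any shift common to most genes. An offset remained in the deposited values, where array medians were highest on mutant arrays 1 to 3. Centring each array on its median took the genotype difference of Notch1 from 0.49 to 0.43 and of Notch2 from 0.45 to 0.39. No scanner file or detection call was used. The 64 control probe sets were left out. Probe sets were named from the platform annotation; 34945 had 1 symbol, and the brightest over all arrays stood for each of 18193 genes. No dim genes were filtered.

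A single limma fit (3.58.1, R 4.3.3, statmod 1.5.0) over the 3 groups gave 2-sided tests with 15 residual degrees of freedom. The fit over all 45037 probe sets gave the members' other probe sets. The script was tested on simulated data. Groups and replicate numbers came from the sample titles.

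Members and lists were chosen with earlier results of these data known. All members and their probe sets were named; from each further list, up to 4 called genes with the largest difference, or the 2 of smallest p where none was called; and the 3 genes most correlated with each called member. Other genes are said to be chosen after their values were seen. Deviations of equally numbered anterior and posterior control arrays correlated at 0.111 to 0.430 over genes, above 0.1 in 6 of 6 pairs. A shift shared by equally numbered arrays can also give this, and the labels do not say that equal numbers share an animal. The main fit therefore used no pairing, and the replicate number was a block only in an alternative fit. For genotype 2 of 6 pairs passed. Promoters came from a RefSeq table (GRCm38.p6). Figures used matplotlib 3.10.9 in Python 3.11.15. Alternatives are given at the end.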

Additional observations from a re-analysis of the deposited data

Results flagged for a closer look

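Over the 54 groups of 6 arrays formed by the 18 probe sets, 4 held an array far from the other 5 (a gap to its neighbour, as a share of the group's range, above Dixon's 95% critical value), where chance gives about 1 in 20. Dll1 read 6.35 on control posterior array 5, beside 6.78 to 6.93 on the others. Jag1 on 1421105_at read 4.86 on control anterior array 2, beside 5.20 to 5.38. Jag2 on 1426430_at read 8.20 on control posterior array 1, beside 7.85 to 7.94. Notch2 on 1451889_at, a dim probe set, read 4.07 on control anterior array 3, beside 4.22 to 4.30. All 4 were control arrays, and the cause was not tested.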

How the results depend on the processing

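Of the called members, Notch1 for genotype kept its call in 34 of 35 alternatives, Notch2 in 31 of 35 and Notch1 for region in 29 of 33. Each call that was lost was lost where arrays 1 to 3 and 4 to 6 were separated or blocked, with fewer arrays in all but the blocked fit; for Notch2 the adjusted p was then 0.0515 to 0.129 and for Notch1 by region 0.0759 to 0.296. Leaving out any 1 of 18 arrays kept 2 members called for genotype and 1 for region.

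The 2 members called for genotype became 4 with the mean of a gene's probe sets (Notch3 and Heyl added) and 4 with mutant arrays 1 to 3 only (Jag1 and Hey1 added). Of all 18193 genes, 2434 were called with the mean of a gene's probe sets and 4986 with mutant arrays 1 to 3 only. The 2 members became 1 with 4 sets of arrays as a random block, 1 with control arrays 1 to 3 only, 1 with control arrays 4 to 6 only and 1 with arrays 4 to 6 of all groups. The 1 member called for region became 2 in the 2 compared groups alone, 2 with array weights and 2 with the replicate block (Jag1 added). In each of these fits more of all genes were called as well. The replicate block called 17.3% of all genes, beside 3.82% in the main fit, and the counts of the other fits are given below. It became 0 in each of 4 fits limited to arrays 1 to 3 or 4 to 6.

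Of all genes, 2449 were called for genotype. The count was 1572 in the 2 compared groups alone, 588 with 4 sets as a random block, 4986 with mutant arrays 1 to 3 only, 135 with control arrays 1 to 3 only, 1008 with control arrays 4 to 6 only, 905 at an adjusted p under 0.01, and 1512 to 2735 without 1 array, the lowest without control posterior array 5 and the next, 1592, without array 4. For region, 695 became 2151 in the 2 groups alone, 2533 with array weights, 1322 with 4 sets as a random block, 82 and 16 with control arrays 1 to 3 or 4 to 6 only, 148 and 220 with arrays 1 to 3 or 4 to 6 of all groups, 251 at an adjusted p under 0.01, and 389 to 1213 without 1 array (389 without control posterior array 6, 1213 without mutant array 1). Centring each array on its median turned the share of genotype calls that were higher from 57.5% to 38.5%, and no member changed direction.

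With the replicate number as a block, 890 genes were called for genotype, where equally numbered arrays correlated above 0.1 in 2 of 6 pairs. In that fit the dimmer Notch1 probe set lost its call (adjusted p = 0.0725). That probe set also lost it in 6 of the 7 fits limited to arrays 1 to 3 or 4 to 6 of some or all groups or blocked by sets, mutant arrays 1 to 3 only being the exception (adjusted p = 0.0857 to 0.215) and after repeated quantile normalization (adjusted p = 0.0502). For region 3156 were called with the block. With it Jag1 gained a call for region (adjusted p = 0.0257, beside 0.228 without it), and no other call of a member or of its probe sets tested with the block changed.

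Differences of members that were not called changed sign in some fits, and the cause was not tested. For genotype, Jag1 gave 0.13 with the mean of its probe sets, 0.090 with mutant arrays 4 to 6 only and 0.11 with arrays 4 to 6 of all groups. Jag2 gave 0.030, 0.016 and 0.088 under the same choices, 0.037 with control arrays 4 to 6 only, and -0.067 to 0.021 without 1 array. Hes1 gave 0.030 with arrays 1 to 3 of all groups. Hey1 gave -0.11 with mutant arrays 4 to 6 only and -0.040 with arrays 4 to 6 of all groups. Hey2 gave -0.10 with control arrays 4 to 6 only, -0.10 with arrays 4 to 6 of all groups and -0.071 to 0.19 without 1 array. For region, Notch2 gave 0.018 with the mean of its probe sets, and Heyl -0.14 to 0.021 without 1 array. Hey2 gave no value under the filter on dim genes. Probe sets near the middle or below of all signals (Hey2, Heyl 1419302_at and 1419303_at, Jag1 1421105_at, Notch2 1451889_at) are limited by signal over background, and no detection calls were used.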
